A study of Mus musculus with 21 samples.

Results

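Cultured mouse aortic smooth muscle cells stimulated for 24 h with tumour necrosis factor (TNF) were set against cells stimulated with an antibody that activates the lymphotoxin beta receptor (anti-LTBR), to find genes whose level differed between the agonists. The comparison used 8 of the study's 21 microarrays, chosen by their labelled treatment and time: 4 from cells given TNFalpha at 1 ng/ml and 4 from cells given anti-LTBR at 10 µg/ml. Arrays were numbered 0 to 3 in each group and were compared within a number. The remaining 24 h arrays were 3 of cells given both agonists at these doses (numbers 1 to 3) and 4 of cells given PBS (numbers 0 to 3). TNF, anti-LTBR and PBS had a single array each at 2 h and again at 6 h, all numbered 0. The donors of the aortas were male C57BL/6J mice of 10 to 12 weeks. Each agonist was used at 1 dose, so agonist and dose cannot be told apart. Whether a number marks its own culture or animal is not stated in the labels. The spread that the tests use is therefore that between these arrays, and it may be technical. The number of arrays limits the precision, and fewer cells of a type cannot be told apart from less RNA per cell.

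TNF acts on these cells mainly through TNF receptor 1, whose adaptors activate the IKK complex within minutes and release the canonical NF-kB dimers, which switch on chemokine, cytokine and feedback inhibitor genes. LTBR, a receptor of the same superfamily that directs the formation of lymph nodes, also activates this canonical arm. In addition it stabilizes the kinase NIK (gene Map3k14), which leads to the slow processing of the Nfkb2 product p100 to p52 and to nuclear p52-RelB. The series title names combined signalling through TNFR1 and LTBR and the change of smooth muscle cells into lymphoid tissue organizers, stromal cells that gather lymphocytes.

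Of 9 smooth muscle markers, 8 were above the array median on all 8 arrays. The arrays numbered 0 stood apart: Pecam1, an endothelial adhesion gene, had signals of 5653, 323, 104 and 93.3 on TNF arrays 0 to 3, and 5619.8, 369.9, 234 and 40.3 on anti-LTBR arrays 0 to 3. The summed signal of 19 endothelial markers was 27807 with TNF and 26421 with anti-LTBR on the arrays numbered 0, against 3473 to 6782 and 3887 to 7327 on the others. Pecam1 was also at 3727 to 4734 on the 6 arrays of 2 h and 6 h. The smooth muscle myosin gene Myh11 was at 151 with TNF and 111 with anti-LTBR on the arrays numbered 0, and at 529 to 2286 and 638 to 2728 on the others. The summed signal of 12 macrophage and monocyte markers was 1240 to 3702 with TNF and 1117 to 3389 with anti-LTBR. For 12 lymphocyte markers, 10 of them on the array, it was 742 to 1103 and 652 to 938.

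Among 12446 genes tested, 91 differed between the agonists at an adjusted p under 0.05 (0.731% of the genes; limma with the number as a block, Benjamini-Hochberg adjustment over all genes), and these are referred to as called. TNF was higher for 44 genes (0.354%) and anti-LTBR for 47 (0.378%). The TNF-high differences were larger: their median was 0.82 on the log2 scale (range 0.15 to 3.18) and 19 reached 2-fold. The median of the anti-LTBR-high differences was 0.47 (range 0.23 to 1.17) and 1 gene reached 2-fold. All 91 had the same sign in 4 of 4 pairs. The TNF arrays all lay above the anti-LTBR arrays for 16 of the 44, which held for 0.619% of all tested genes, and all below for 6 of the 47, against 0.603% of all tested genes. When arrays were first scaled to equal medians, 33 genes were called higher with TNF and 61 higher with anti-LTBR. Without the number as a block 2 genes were called, Hp and H2-K1, both higher with TNF (adjusted p = 0.0371 for each), and 242 had an unadjusted p under 0.05, against 1422 with the block. The number of calls also rested on single arrays: 91 fell to 32, 47 and 52 without TNF array 1, 2 or 3, and to 52, 42, 42 and 60 without anti-LTBR array 0, 1, 2 or 3. Leaving out number 1, 2 or 3 in all groups left 19, 26 or 48 calls, and 83 were left without number 0. Of the main calls, 32 of the 44 higher with TNF and 30 of the 47 higher with anti-LTBR were among those 83.

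**Figure D1:**
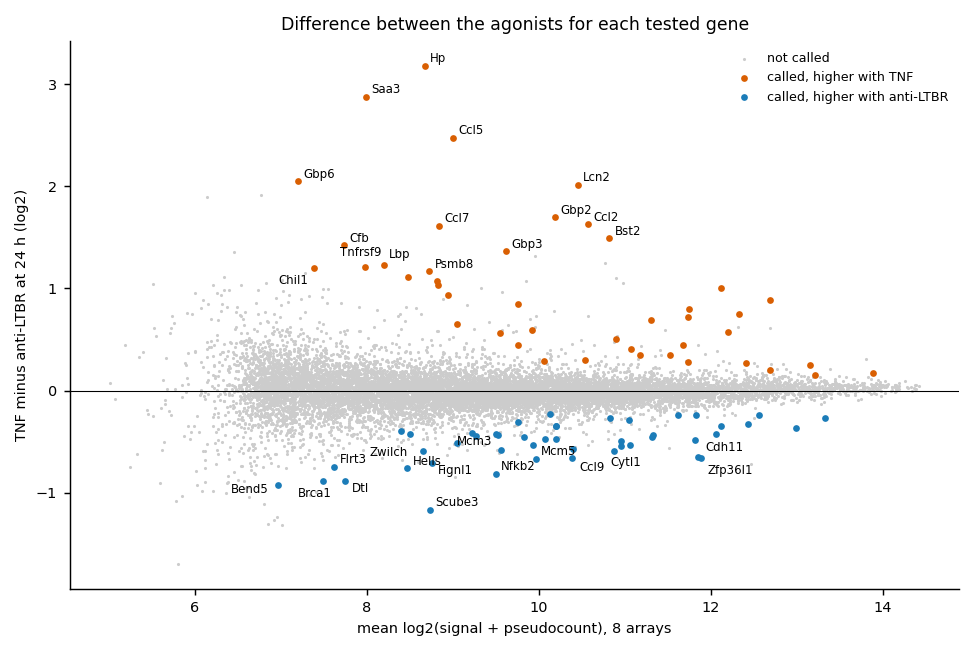
Each point is 1 of 12446 tested genes, with its mean log2(signal + pseudocount) over the 8 arrays on the horizontal axis and TNF minus anti-LTBR at 24 h (log2, mean of 4 pairs) on the vertical axis; orange and blue points are the 44 and 47 called genes, and the 15 largest differences in each direction are named. The orange points reach 3.18 and the blue ones extend down to -1.17.

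The promoters of a few genes in both directions show the kinds of sequence that NF-kB and interferon-driven factors bind, and are printed from RefSeq (GRCm38.p6) for genes that the results below turn on. Capitals mark matches to a kB motif (GGGA or GGGG, any 2 bases, then TTCC) in Il6, Tnfrsf9, Nfkb2 and Ccl9 and to an interferon response motif (GAAA, any 2 bases, then GAAA) in Gbp2 and Gbp3, on either strand. The genes Il6, Tnfrsf9, Gbp2 and Gbp3 were higher with TNF, and Nfkb2 and Ccl9 were higher with anti-LTBR. All stretches are 70 bases long and are read 5′ to 3′ on the strand of the gene. They lie at chr5:30013040-30013109 (plus strand, Il6), chr4:150927926-150927995 (plus, Tnfrsf9), chr3:142620574-142620643 (plus, Gbp2), chr3:142559974-142560043 (plus, Gbp3), chr19:46304667-46304736 (plus, Nfkb2) and chr11:83578637-83578706 (minus, Ccl9), upstream of the annotated start.
Il6: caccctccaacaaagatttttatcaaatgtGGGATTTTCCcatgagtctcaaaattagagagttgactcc
Tnfrsf9: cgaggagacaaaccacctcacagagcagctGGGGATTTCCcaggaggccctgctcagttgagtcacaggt
Gbp2: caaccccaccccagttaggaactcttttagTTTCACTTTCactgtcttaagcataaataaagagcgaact
Gbp3: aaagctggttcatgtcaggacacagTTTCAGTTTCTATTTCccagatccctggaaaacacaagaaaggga
Nfkb2: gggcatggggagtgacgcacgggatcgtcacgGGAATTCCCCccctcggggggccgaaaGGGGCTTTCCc
Ccl9: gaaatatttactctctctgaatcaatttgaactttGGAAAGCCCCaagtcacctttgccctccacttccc
The 2 matches in Gbp3 overlap. Within 250 bases upstream, promoters were given for 32 of the 44 TNF-high genes and 41 of the 47 anti-LTBR-high genes. The kB motif occurred in 4 of 32 (12.5%) and 2 of 41 (4.9%), against 3.1% of 10051 tested genes. The interferon response motif occurred in 5 of 32 (15.6%) and 3 of 41 (7.3%), against 3.1%. A gamma activated motif (TTC, any 3 bases, then GAA; either strand) occurred in 4 of 32 (12.5%) and 2 of 41 (4.9%), against 7.0%. In Bst2 the gamma activated match overlaps the kB match and 1 of the 2 interferon response matches. These counts describe letters in a window and are small.

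Acute phase proteins, secreted in quantity during inflammation, held the largest differences. Of 11 tested of 20 listed genes, 6 were higher with TNF (54.5%, against 0.354% of all genes) and none with anti-LTBR. All 11 differences were above 0, against 48.2% of all tested genes. The median was 0.59, against -0.01 for all tested genes. Hp, which encodes the haemoglobin-binding protein haptoglobin, had signals of 1459.5, 1709, 715 and 1227 on TNF arrays 0 to 3, and 110.5, 221, 97.4 and 102 on anti-LTBR arrays 0 to 3. The groups did not overlap, and the difference was 3.18 ± 0.21 (log2, SE, 4 pairs), or 9.07-fold (adjusted p = 1.23e-05). In PBS cells Hp was at 56.2, 241.7, 38.9 and 70.9 on arrays 0 to 3 (102 ± 94.1, SD, n = 4), a mean raised by array 1. The anti-LTBR array was lower than the PBS array only in number 1. Anti-LTBR minus PBS was 0.58 ± 0.21, without a call (adjusted p = 0.148), and TNF minus PBS was 3.76 (adjusted p = 4.41e-07). Saa3, a serum amyloid A made outside the liver, had signals of 319, 2086, 359 and 862 with TNF and 47.7, 64.4, 126 and 119 with anti-LTBR. Saa3 was above the array median on 1 of 4 anti-LTBR arrays and 4 of 4 TNF arrays, so it was dim with anti-LTBR and its fold depends on the pseudocount (2.45 with a pseudocount of 50 and 3.01 with 1). All TNF arrays were higher, by 2.88 ± 0.47 (adjusted p = 0.0106), although the TNF arrays differed among themselves several-fold. Without TNF array 1 the adjusted p was 0.0596, and the call also ended without anti-LTBR array 0.

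Lcn2, the siderophore-binding lipocalin that withholds iron from bacteria, had signals of 1869, 6753, 1777 and 2721 with TNF and 575, 1367, 355 and 785 with anti-LTBR. Its difference of 2.01 ± 0.17 (4.03-fold, adjusted p = 8.61e-05) was close in all 4 pairs, at 1.68 to 2.30. Lcn2 rose against PBS with each agonist, by 2.96 with TNF (adjusted p = 4.41e-07) and 0.95 with anti-LTBR (adjusted p = 0.00664). Lbp, which encodes the lipopolysaccharide-binding protein, had signals of 339.5, 879, 315 and 390.4 with TNF and 163, 236, 144 and 195 with anti-LTBR, a difference of 1.23 ± 0.16 (adjusted p = 0.00353). Cp, the copper-carrying ferroxidase ceruloplasmin, had signals of 1043, 2004, 958 and 956 with TNF and 699.7, 1266, 612 and 673 with anti-LTBR. The groups overlapped, because both arrays numbered 1 were the highest of their group, but the pairs differed by 0.50 to 0.66 (0.59 ± 0.05, adjusted p = 8.61e-05). Ptx3, a long pentraxin, was the remaining called member and was named after its values were seen (0.69, adjusted p = 0.011). The Ptx3 call ended without any 1 of 4 arrays and without 3 of the 4 numbers (highest adjusted p = 0.197, without number 1). The calls of Hp, Lcn2, Lbp and Cp held with each of the 15 arrays and each of the 4 numbers left out.

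Complement genes followed in smaller number, with 2 of 15 tested called, both higher with TNF (13.3%, against 0.354% of all genes). Their median was 0.12. Cfb, factor B of the alternative pathway, had signals of 173, 581, 451 and 288 with TNF and 85.2, 232, 112 and 92.1 with anti-LTBR (1.42 ± 0.18, adjusted p = 0.00291). Only the highest anti-LTBR array reached above the lowest TNF array, and anti-LTBR minus PBS was 0.08 (adjusted p = 0.872). C1ra, a protease of the first complement complex, differed by 0.51 ± 0.09 (adjusted p = 0.0226), with adjusted p = 0.0519 after scaling to equal medians and 0.112 without number 0. The remaining 13 tested members were not called, with values from -0.31 (Cfi) to 1.04 (C1qc). Chil1, a chitinase-like secreted glycoprotein on no list, had signals of 176, 763, 80.8 and 307 with TNF and 62.1, 239.8, 46.2 and 136 with anti-LTBR (1.20 ± 0.24, adjusted p = 0.0346). Its call ended without any 1 of 6 arrays, with the highest adjusted p, 0.19, without TNF array 1, and without number 0 (0.0561). Chil1 was above the array median on 3 of 4 TNF and 2 of 4 anti-LTBR arrays, and it was not called with no filter (0.0675).

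**Figure D2:**
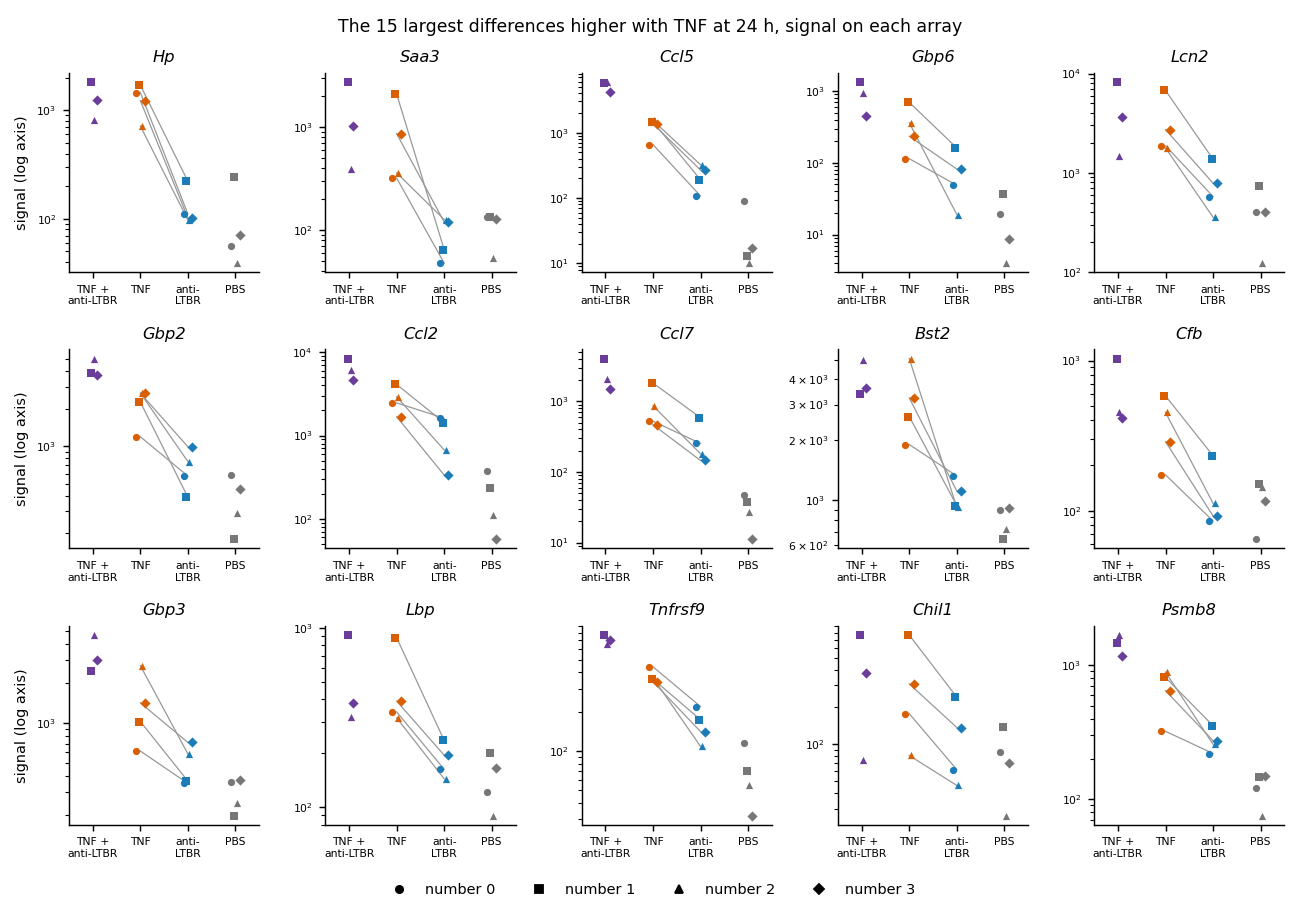
Signal on each 24 h array (log axis) for the 15 largest differences in favour of TNF, with TNF plus anti-LTBR, TNF, anti-LTBR and PBS from left to right and 1 symbol shape for each array number; grey lines join the TNF and anti-LTBR arrays of 1 number. Every line falls from TNF to anti-LTBR, and the anti-LTBR arrays of Hp lie within the range of the PBS arrays.

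Genes known to be induced by interferons were next. The interferon-inducible GTPases, which coat and disrupt vacuoles that hold microbes, gave 3 of 9 tested genes called higher with TNF. This was 33.3%, against 0.354% of all genes, and the median was 0.89. All 9 differences were above 0, against 48.2% of all tested genes. Gbp2 had signals of 1191, 2262, 2671 and 2671 with TNF and 575, 389, 752 and 988 with anti-LTBR. The groups did not overlap, and the difference was 1.70 ± 0.31 (adjusted p = 0.021). Gbp3 had signals of 615, 1028, 2724 and 1425 with TNF and 349, 363, 584 and 714 with anti-LTBR, with 1 anti-LTBR array above the lowest TNF array (1.37 ± 0.28, adjusted p = 0.0393). Gbp6 was dim with anti-LTBR, at 48.6, 161, 19.0 and 81.7, against 114, 694, 361 and 234 with TNF (2.05 ± 0.40, adjusted p = 0.0327). It was above the array median on 3 of 4 TNF and 1 of 4 anti-LTBR arrays, and was not called with no filter (adjusted p = 0.0638) or a pseudocount of 1 (0.0661). Members of this family are close in sequence, and cross-hybridisation between them was not tested. The interferon response matches in the Gbp2 and Gbp3 promoters are printed above. Their calls depended on single arrays: the highest adjusted p was 0.113 for Gbp2, 0.154 for Gbp3 and 0.149 for Gbp6, each without TNF array 1. Against PBS, all 9 GTPases were called higher with TNF and 3 with anti-LTBR. For all genes the shares called higher than PBS were 3.06% with TNF and 2.55% with anti-LTBR, and the comparisons share the 4 PBS arrays.

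Among 36 tested antiviral effectors, 34 differences were above 0, against 48.2% of all tested genes, and the median was 0.45. Called were 2 of the 36, both higher with TNF (5.56%, against 0.354% of all genes). An unadjusted p under 0.05 was found for 24, against 1422 of all 12446 genes. Bst2, the membrane tether that holds budding virus at the cell surface, had signals of 1898, 2616, 5086 and 3238 with TNF and 1323, 942, 923 and 1114 with anti-LTBR (1.49 ± 0.22, adjusted p = 0.00533). All TNF arrays were above all anti-LTBR arrays, and number 0 gave the smallest of the pair differences (0.52, against 1.46 to 2.45). Without number 0 the difference was 1.81 (adjusted p = 0.000414). The Bst2 call ended without 2 of the 4 numbers (highest adjusted p = 0.113, without number 1). Lgals3bp, a secreted galectin-binding glycoprotein, differed by 0.79 ± 0.13 (adjusted p = 0.0106). Its call ended without any 1 of 3 arrays and without 2 of the 4 numbers. Among members not called, Zbp1, a sensor of viral nucleic acid, differed by 1.89 (adjusted p = 0.0641), and Oasl2 and Ifit3, interferon-induced effectors, by 1.35 and 1.10 (adjusted p = 0.0821 and 0.0699). Against PBS, 23 of the 36 were called higher with TNF and 2 with anti-LTBR, against 3.06% and 2.55% of all genes.

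Of 16 tested interferon receptors, STATs and IRFs, 1 was called (6.25%, against 0.731% of all genes). Irf7, a transcription factor that amplifies type I interferon responses, had signals of 264, 555, 1094 and 1027 with TNF and 158, 246, 363 and 619.9 with anti-LTBR. Each pair was higher with TNF, while the groups overlapped (1.03 ± 0.22, adjusted p = 0.0475). The call held in 4 of 10 other settings and ended without any 1 of 9 arrays and without number 0 (adjusted p = 0.0681). Stat2 and Irf9, which form a transcription factor complex below the type I interferon receptor, differed by 0.52 and 0.36 and were not called. Irf1 differed by 0.05 and the receptor subunits Ifnar1, Ifnar2, Ifngr1 and Ifngr2 by -0.27 to 0.21, also with no call.

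MHC class I genes, which display peptides to CD8 T cells, gave 7 of 16 tested genes called, all higher with TNF. This was 43.75%, against 0.354% of all genes, and the median was 0.39. After scaling to equal medians 5 of the 16 were called. Tapbp, the tapasin that loads peptide onto class I molecules, had signals of 6135, 7423, 6785 and 6405 with TNF and 4063, 4505, 3766 and 3566 with anti-LTBR (0.75 ± 0.06, adjusted p = 1.96e-05). The class I heavy chain gene H2-K1 had signals of 6879.6, 9831, 10043 and 9559 with TNF and 5061, 4912, 4404 and 5079 with anti-LTBR (0.89 ± 0.12, adjusted p = 0.00371). Its 3 other probe sets differed by 1.01 to 1.82. The class I heavy chain gene H2-D1 had signals of 4625, 7159, 6993 and 6743 with TNF and 2906, 3495, 2593 and 3594 with anti-LTBR (1.01 ± 0.13, adjusted p = 0.00353). In all 3 genes the groups did not overlap. Class I genes are near-identical in places, and reads of 1 probe set may include transcripts of another class I gene.

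Psmb8, a catalytic subunit of the immunoproteasome, had signals of 321, 811, 888 and 646 with TNF and 219, 353, 257 and 273 with anti-LTBR (1.17 ± 0.23, adjusted p = 0.0346). The TNF array numbered 0 lay below the highest anti-LTBR array, and without number 0 the difference was 1.38 (adjusted p = 0.0145). Its call ended without any 1 of 9 arrays, with the highest adjusted p, 0.146, without TNF array 1. The remaining called members, named after their values were seen, were Erap1, the peptide-trimming aminopeptidase (0.65, adjusted p = 0.00411), Psme1, a proteasome activator subunit (0.45, adjusted p = 0.0393), and B2m, the class I light chain (0.17, adjusted p = 0.0185). With equal medians Psme1 and B2m were not called (adjusted p = 0.0797 and 0.461), and the Erap1 call ended without 2 of the 4 numbers. The peptide transporter genes Tap1 and Tap2 differed by 0.33 and 0.12 with no call, and the general chaperone genes Calr and Canx by 0.02 each. Tapbp, H2-K1 and H2-D1 kept their calls with each of the 15 arrays left out. The H2-K1 call ended without 2 of the 4 numbers and that of H2-D1 without 1 (highest adjusted p = 0.0726 for each, without number 1).

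Chemokines divided between the agonists. Of 8 tested CC chemokines, 3 were called higher with TNF and 1 with anti-LTBR (50% in either direction, against 0.731% of all genes). Ccl5, which attracts T cells, had signals of 656, 1471, 1535 and 1366 with TNF and 108, 190.2, 323 and 268 with anti-LTBR. The groups did not overlap, and all 4 pairs differed by 2.21 to 2.89 (2.48 ± 0.47, 5.56-fold, adjusted p = 0.0259). With both agonists Ccl5 was at 5235 ± 974 (SD, n = 3), and in PBS cells at 32.5 ± 38.3 (n = 4). Ccl2, the main attractant of monocytes, had signals of 2464, 4103, 2916 and 1683 with TNF and 1617, 1426, 673 and 335 with anti-LTBR. The difference was 1.63 ± 0.26 (adjusted p = 0.0101), smallest in number 0 (0.61, against 1.52 to 2.29). Ccl7, a monocyte chemokine encoded beside Ccl2, had signals of 523, 1812, 866 and 467 with TNF and 253, 586, 181 and 145 with anti-LTBR (1.61 ± 0.24, adjusted p = 0.00594). Ccl5, Ccl2 and Ccl7 also rose against PBS with anti-LTBR, by 2.68, 2.37 and 2.76 (adjusted p = 0.00487, 0.000203 and 2.6e-05). The call of Ccl5 ended without any 1 of 7 arrays (highest adjusted p = 0.123, without TNF array 1), and that of Ccl2 without TNF array 1 (0.0566) or anti-LTBR array 2. Ccl5 was also not called with a pseudocount of 1 (0.0581), with no filter (0.051) or without the variance trend. Leaving out numbers ended the calls of Ccl5 and Ccl2 for 3 of 4 numbers each, and that of Ccl7 for 2.

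Ccl9, a macrophage inflammatory protein gene of the mouse, went the other way. Its signals were 796, 1302, 1059.5 and 1124 with TNF and 1098, 2512, 1426 and 1992 with anti-LTBR. Each pair was lower with TNF, and 2 TNF arrays were above the lowest anti-LTBR array (-0.66 ± 0.12, adjusted p = 0.0232). A second Ccl9 probe set differed by -0.69. Against PBS, Ccl9 differed by 0.38 with TNF (adjusted p = 0.0968) and rose by 1.04 with anti-LTBR (adjusted p = 0.000307). Its call ended without any 1 of 6 arrays (highest adjusted p = 0.12, without anti-LTBR array 1). Of 6 tested CXC and CX3C chemokines, 1 was called (16.7%, against 0.731% of all genes). This was Cxcl16, a membrane-bound chemokine that also takes up oxidized lipoprotein. Its signals were 1538, 986, 1159 and 1008 with TNF and 1232, 588, 542 and 415 with anti-LTBR (0.85 ± 0.17, adjusted p = 0.0393). The Cxcl16 call ended without any 1 of 10 arrays (highest adjusted p = 0.157, without TNF array 1) and without 3 of the 4 numbers. Cxcl10 differed by -0.48 and Cxcl1 by 0.34, neither with a call.

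Of the tested cytokine and TNF superfamily genes, 9.52% and 7.14% were called, against 0.731% of all genes. Il6, the cytokine that drives the acute phase response in liver, had signals of 279, 948, 724 and 354 with TNF and 160.2, 394, 235 and 193 with anti-LTBR. It was higher with TNF in every pair, by 0.76 to 1.58 (1.11 ± 0.19, adjusted p = 0.0158), and its call ended without any 1 of 4 arrays (highest adjusted p = 0.0981, without TNF array 1). In PBS cells Il6 was at 243 ± 57.5 (n = 4), and anti-LTBR minus PBS was -0.03 (adjusted p = 0.952). Ereg, an EGF receptor ligand, differed by 0.41 ± 0.08 (adjusted p = 0.0286, or 0.0801 with equal medians) and was the only other called gene among 21 cytokines and growth factors. Of 14 TNF superfamily genes, Tnfrsf9, the co-stimulatory receptor 4-1BB, was called. Its signals were 440.2, 355, 363 and 339 with TNF and 219, 173, 108 and 141 with anti-LTBR, with no overlap (1.21 ± 0.17, adjusted p = 0.00522). The Tnfrsf9 call ended without 2 of the 4 numbers (highest adjusted p = 0.0865, without number 2). The other Tnfrsf9 probe sets, which were below the array median on all 8 arrays, differed by -0.04 and 1.67. The promoters of Il6 and Tnfrsf9 hold the kB matches printed above.

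None of the 3 receptor genes was called. Ltbr had signals of 1523, 1522, 1157 and 1388 with TNF and 1598, 1381, 1392 and 1383 with anti-LTBR (-0.05 ± 0.06, adjusted p = 0.847). Tnfrsf1a, TNF receptor 1, averaged 3024 ± 573 with TNF and 3051 ± 379.8 with anti-LTBR (SD, n = 4 each; -0.03 ± 0.07, adjusted p = 0.933). Tnfrsf1b, TNF receptor 2, differed by -0.17 ± 0.16 (adjusted p = 0.757), and its second probe set by -0.45. Calls that were missed do not show that the levels are equal.

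Within the non-canonical NF-kB pathway, 1 of 7 tested genes was called (14.3%, against 0.731% of all genes). Nfkb2, which encodes p100 and its product p52, had signals of 538, 694, 433 and 501 with TNF and 915, 1201, 904 and 811 with anti-LTBR. All TNF arrays were below all anti-LTBR arrays, and the difference was -0.82 ± 0.14 (1.76-fold higher with anti-LTBR, adjusted p = 0.0174). In PBS cells Nfkb2 was at 189.7 ± 55.7, so it rose with each agonist, by 1.49 with TNF (adjusted p = 4.9e-05) and 2.31 with anti-LTBR (adjusted p = 1.51e-06). Its call ended without any 1 of 5 arrays (highest adjusted p = 0.0792, without anti-LTBR array 1), and a second probe set differed by -0.35. Nfkb2 was also not called with the mean over probe sets, without the variance trend, or without number 1 (adjusted p = 0.171). The stretch of its promoter printed above holds 2 kB matches, and 2 more lie further upstream within the 250 bases.

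The partner of p52, Relb, had signals of 404, 692, 604 and 506 with TNF and 323, 397, 342 and 368 with anti-LTBR. The TNF arrays all lay above the anti-LTBR arrays, opposite to Nfkb2, but the difference of 0.59 ± 0.14 was not called (adjusted p = 0.0904). Without number 0 it was called (0.68, adjusted p = 0.0309), and without number 1 its adjusted p was 0.46. Birc2, a ubiquitin ligase that keeps NIK low in resting cells, had signals of 1455, 1491, 1963 and 1199 with TNF and 2308, 2139, 2449 and 1560.3 with anti-LTBR, with adjusted p = 0.0562 for a difference of -0.47 ± 0.10. With equal medians Birc2 was called (adjusted p = 0.0315), and without number 0 its adjusted p was 0.235. Map3k14, encoding NIK, differed by -0.21 ± 0.11 (adjusted p = 0.526). A second, dimmer Map3k14 probe set, above the array median on 4 of 8 arrays, averaged 70.2 with TNF and 156 with anti-LTBR, a difference of -1.24. Birc3, the other NIK-directed ubiquitin ligase, differed by -0.13 ± 0.14 (adjusted p = 0.805), and Otud7b, a deubiquitinase, by -0.01 ± 0.11 (adjusted p = 0.98).

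No gene of the canonical pathway was called among 14 tested, and the median was -0.02. With 0.731% of all genes called, the absence of a call in so short a list says little. An unadjusted p under 0.05 was found for 2, against 1422 of all 12446 tested genes. Rela, the p65 subunit, had signals of 2809.9, 2370.5, 2419.7 and 2892 with TNF and 2777, 2071, 2648 and 2493 with anti-LTBR (0.07 ± 0.06, adjusted p = 0.713). The kinase complex genes Ikbkb and Ikbkg differed by -0.07 and -0.03. Traf2, an adaptor of both receptors, was lower on every TNF array, at 359, 339.7, 351 and 298, than on the anti-LTBR arrays, at 379, 497, 427 and 381, without a call (-0.31 ± 0.09, adjusted p = 0.181). The adaptor genes Tradd and Traf5 differed by -0.25 and 0.02, the kinase gene Map3k7 and its partners Tab1, Tab2 and Tab3 by -0.10 to 0.13, and the linear ubiquitin ligase genes Rnf31, Rbck1 and Sharpin by -0.06 to 0.13.

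Among 15 NF-kB inhibitors and feedback genes, 2 were called, both higher with TNF (13.3%, against 0.354% of all genes). Tnfaip2 had signals of 894, 1262, 469.5 and 377 with TNF and 686, 563, 156 and 229 with anti-LTBR (0.94 ± 0.17, adjusted p = 0.0218). Ier3, an early response gene that affects cell survival, had signals of 4667, 4502, 3627 and 4722 with TNF and 3048, 2177, 2013 and 3653 with anti-LTBR (0.72 ± 0.12, adjusted p = 0.0103). Both overlapped between groups, with each pair higher with TNF. The Tnfaip2 call ended without any 1 of 6 arrays and that of Ier3 without any 1 of 3. Their highest adjusted p values were 0.116 and 0.0545, both without TNF array 1. The other Tnfaip2 probe sets differed by 0.36 and 0.26. Nfkbia, which encodes the inhibitor IkB-alpha, differed by 0.05 and Tnfaip3, which encodes the ubiquitin-editing enzyme A20, by 0.18, without calls. Sod2, the mitochondrial superoxide dismutase, was the 1 called gene of 17 oxidative stress genes (0.58 ± 0.08, adjusted p = 0.00457). Its TNF signals of 4405, 7440.1, 6018 and 5507 all exceeded its anti-LTBR signals of 3381, 4145, 4109 and 3786. Timp1, an inhibitor of matrix metalloproteinases, differed by 0.25 ± 0.05 (adjusted p = 0.0224, or 0.289 with equal medians and 0.0628 without number 0).

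The lymphoid stroma factors, by which organizer cells attract and keep lymphocytes, held no called gene among 8 tested. Over all genes 0.731% were called, so a list of this size would usually hold none, and the absence says little. Vcam1, an adhesion molecule for lymphocytes, had signals of 11144, 7313, 8134 and 6610.2 with TNF and 9041, 4982, 5083 and 3524 with anti-LTBR. It was higher with TNF in 4 of 4 pairs, by 0.61 ± 0.15 (adjusted p = 0.0844), and without number 0 it was called (0.71, adjusted p = 0.000381). Without number 1 its adjusted p was 0.448. Its other probe sets, above the median on all 8 arrays, differed by 0.58 and 1.30. Icam1, another adhesion molecule, differed by 0.14 ± 0.26 (adjusted p = 0.901). Cxcl12, a chemokine for lymphocytes and stem cells, averaged 18501 ± 1676 with TNF and 17811 ± 1769 with anti-LTBR (n = 4 each). Cxcl13, the B cell chemokine, had signals of 1386, 162, 229 and 362 with TNF and 1242, 136, 195 and 240.2 with anti-LTBR, high in both arrays numbered 0 (0.29 ± 0.16, adjusted p = 0.52). Il7, a survival factor for lymphocytes, Tnfsf13b, which encodes the B cell factor BAFF, Bst1 and Pdpn, stromal surface proteins, differed by 0.17, 0.01, 0.28 and -0.11, all without calls.

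**Figure D3:**
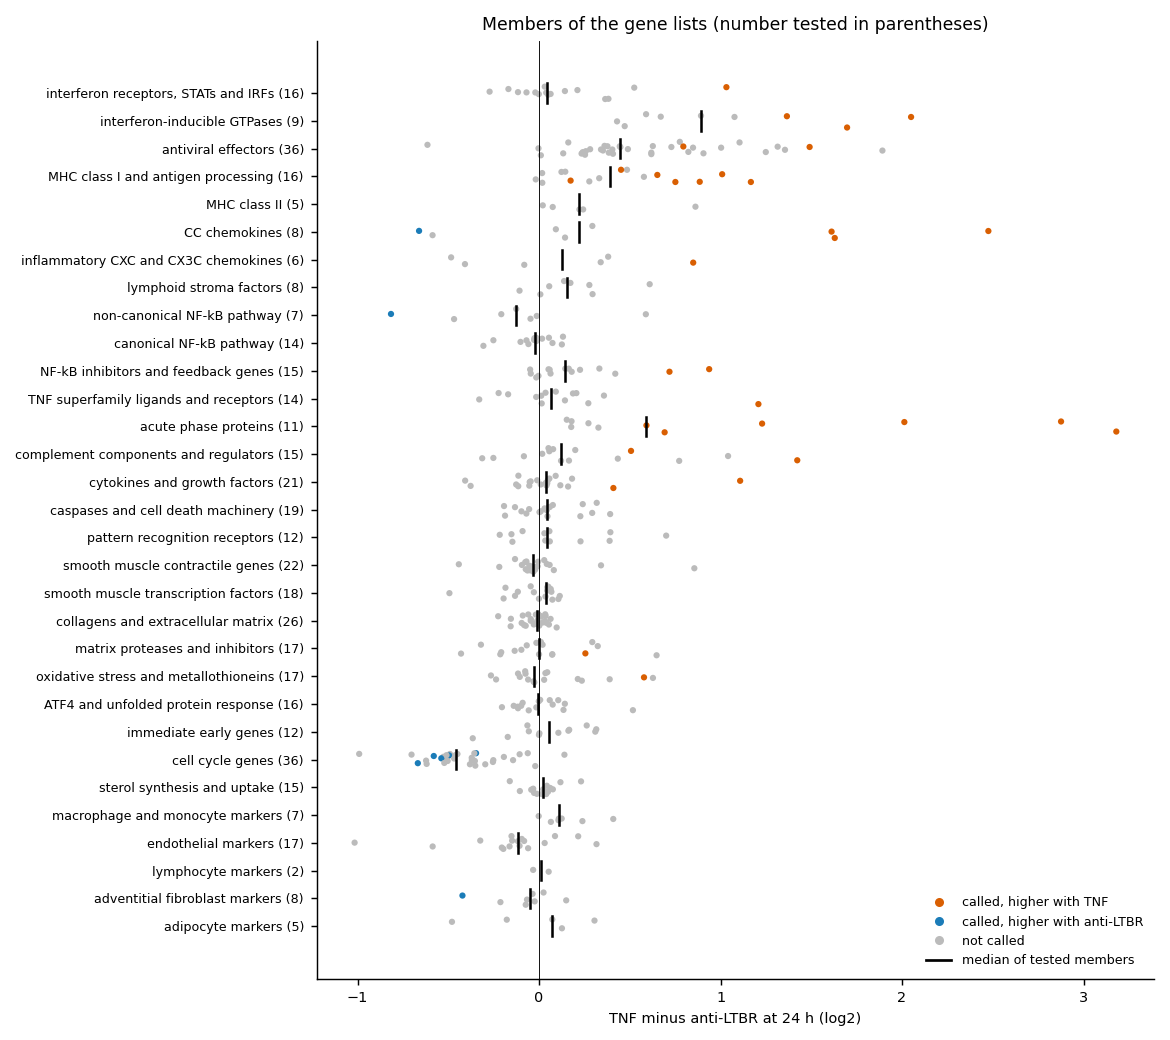
Each point is a tested gene of the list named at left, at its TNF minus anti-LTBR difference at 24 h (log2); colours mark called genes and black bars the medians of the tested members. The acute phase, GTPase, antiviral and MHC class I lists have medians of 0.59, 0.89, 0.45 and 0.39, and the cell cycle list has one of -0.46.

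In favour of anti-LTBR the differences were smaller, and the cell cycle list held 5 of the 47 called genes. Of its 36 tested genes, these 5 were the called ones, all higher with anti-LTBR (13.9%, against 0.378% of all genes). The median was -0.46, and 35 differences were below 0, against 6449 of all 12446 tested genes. An unadjusted p under 0.05 was found for 29, against 1422 of all tested genes. With equal medians 9 were called and with quantile normalization 4. Mcm5, Mcm3 and Mcm7 encode subunits of the helicase that opens DNA for replication. Mcm5 had signals of 1516, 501, 1039 and 469 with TNF and 1998, 1075, 1446 and 778 with anti-LTBR (-0.67 ± 0.13, adjusted p = 0.0304). Mcm3 had signals of 1159, 508, 635 and 356 with TNF and 1451, 847, 936 and 593 with anti-LTBR (-0.58 ± 0.10, adjusted p = 0.0161). Mcm7 had signals of 2613, 1359, 1778 and 1207 with TNF and 3423, 2159, 2310.3 and 1777 with anti-LTBR (-0.50 ± 0.07, adjusted p = 0.00371). For all 3 the groups overlapped and the arrays numbered 0 were highest in each group, and every pair was lower with TNF.

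Pcna, the sliding clamp of the DNA polymerases, differed by -0.35 ± 0.05 (adjusted p = 0.00417), and Rrm2, named after its values were seen, the ribonucleotide reductase subunit that supplies deoxynucleotides, by -0.54 ± 0.11 (adjusted p = 0.0442, or 0.0525 without number 0). Against PBS, 4 of the 36 cell cycle genes were called lower and 1 higher with TNF, against 2.88% and 3.06% of all genes. With anti-LTBR 3 were called higher and 0 lower, against 2.55% and 2.21% of all genes. The 1 higher with TNF and the 0 lower with anti-LTBR are near those shares. The medians against PBS were -0.28 with TNF and 0.13 with anti-LTBR. The calls of Mcm7 and Pcna held without each of the 15 arrays, and those of Mcm3 and Mcm5 ended without any 1 of 6 and 7 arrays. Leaving out number 1 ended the calls of Mcm7 and Pcna (adjusted p = 0.0893 and 0.106). Mitotic genes such as Bub1b (-0.99, adjusted p = 0.152), Ttk (-0.62, adjusted p = 0.0783) and Mki67 (-0.62, adjusted p = 0.107) were not called.

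Among the 15 largest differences in favour of anti-LTBR, some genes with roles in replication or division were on no list. Brca1, which acts in repair by homologous recombination, had signals of 208, 103, 117 and 87.7 with TNF and 352, 233, 204 and 178 with anti-LTBR (-0.88 ± 0.14, adjusted p = 0.00892). Its 3 other probe sets differed by -0.61 to 0.27, and its call was lost with the mean over probe sets. Dtl, which directs destruction of the licensing factor Cdt1, had signals of 348, 126, 149 and 68.5 with TNF and 512, 258, 255 and 182 with anti-LTBR (-0.89 ± 0.19, adjusted p = 0.047). Its 5 other probe sets differed by -0.73 to 0.27, and the call held in 5 of 10 other settings. Hells, a chromatin remodeller of dividing cells, had signals of 427, 187, 308 and 188 with TNF and 698, 361, 505 and 318 with anti-LTBR (-0.76 ± 0.10, adjusted p = 0.00353), while its 2 other probe sets differed by -0.12 and 0.08. The Hells call was lost with the mean over probe sets. Fignl1, a recombination ATPase, and Zwilch, a kinetochore protein of the spindle checkpoint, differed by -0.71 ± 0.14 (adjusted p = 0.0393) and -0.59 ± 0.09 (adjusted p = 0.00954). The second Fignl1 probe set differed by -0.06. The Fignl1 call ended in 4 of 10 other settings, among them the mean over probe sets (-0.38), without any 1 of 10 arrays and without each of the 4 numbers. Other called genes of this kind, chosen for mention after their values were seen, were Smc2 (-0.47), a condensin subunit, Topbp1 (-0.43), Pole2 (-0.39, not called without number 0, adjusted p = 0.133), a polymerase epsilon subunit, Dnmt1 (-0.35), the maintenance DNA methyltransferase, and Hat1 (-0.44), a histone acetyltransferase.

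The remaining large differences in favour of anti-LTBR were of mixed kinds. Scube3, a secreted and membrane-bound EGF-domain protein, was the 1 gene past 2-fold: its signals were 240.5, 117, 475 and 404 with TNF and 569, 288, 1281 and 724 with anti-LTBR. The groups overlapped, but every pair was lower with TNF, by 0.83 to 1.41 in size (-1.17 ± 0.17, 2.25-fold higher with anti-LTBR, adjusted p = 0.00578). In PBS cells it was at 102 ± 66.5, and it rose by 1.52 with TNF (adjusted p = 0.000169) and by 2.69 with anti-LTBR (adjusted p = 1.51e-06). Zfp36l1, which encodes a protein that speeds decay of AU-rich mRNAs, had signals of 2878, 3468, 2505 and 3173 with TNF and 4160.0, 4805, 4868 and 5124 with anti-LTBR, without overlap (-0.66 ± 0.10, adjusted p = 0.00523). TNF minus PBS was 0.13 for this gene (adjusted p = 0.517), and anti-LTBR minus PBS 0.79 (adjusted p = 0.000351). Cdh11, a mesenchymal cadherin, had signals of 3665, 5237, 2167 and 1789 with TNF and 5169.6, 6996, 3636 and 3414 with anti-LTBR (-0.65 ± 0.08, adjusted p = 0.00238). Scube3, Zfp36l1 and Cdh11 kept their calls with each of the 15 arrays left out. The Scube3 call ended without 2 of the 4 numbers (highest adjusted p = 0.113, without number 1).

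Bend5, a BEN-domain protein gene, had low signals of 102, 66.2, 77.3 and 78.9 with TNF and 193, 149.6, 158 and 150.2 with anti-LTBR, without overlap (-0.93 ± 0.18, adjusted p = 0.0304). It was above the array median on 0 of 4 TNF, 0 of 4 PBS and 4 of 4 anti-LTBR arrays, so it passed the filter only through the arrays where it was high. With no filter it was not called (adjusted p = 0.0508), and its call ended without any 1 of 9 arrays and without each of the 4 numbers. Flrt3, an adhesion and guidance receptor, differed by -0.75 ± 0.15 (adjusted p = 0.0304), a call that ended in 4 of 10 other settings, without any 1 of 7 arrays and without each of the 4 numbers. Cytl1, a small secreted protein, differed by -0.59 ± 0.11 (adjusted p = 0.021), and by -0.45 without number 0 (adjusted p = 0.0947). Cytl1 was the 1 gene of these that fell against PBS with TNF, by 0.81 (adjusted p = 0.000531), and its signal ranged from 303 to 4368 on TNF arrays and from 626 to 5949.6 on anti-LTBR arrays, lowest on the arrays numbered 0. Cd34, listed as a fibroblast marker and also made by endothelium, had signals of 5535, 3285, 2886 and 3501 with TNF and 7195, 4568, 3930.2 and 4599.7 with anti-LTBR (-0.42 ± 0.05, adjusted p = 0.000927). Of 17 tested endothelial markers none was called, against 0.731% of all genes, and their median was -0.12. The part of other cell types in these differences was not tested.

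**Figure D4:**
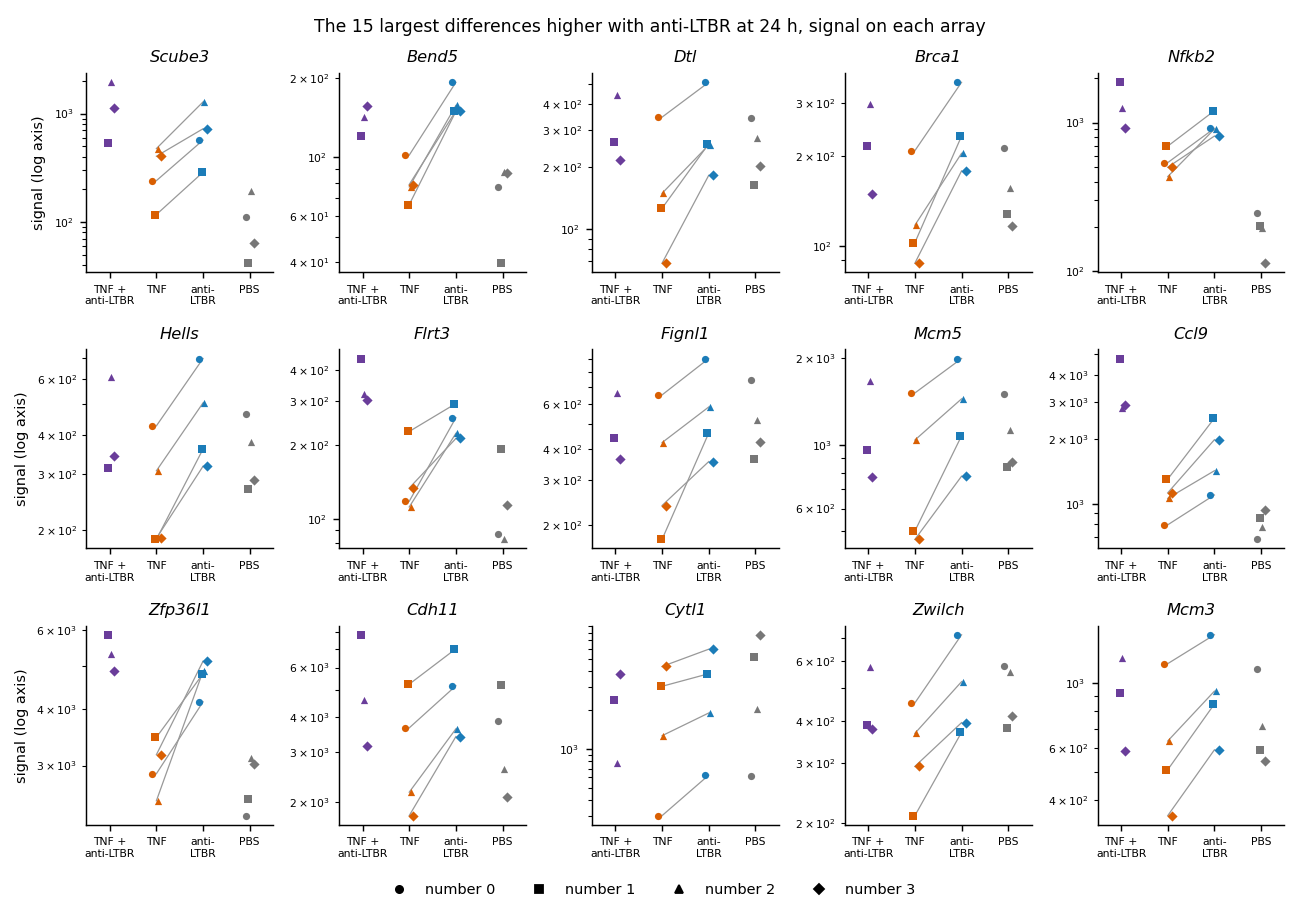
Signal on each 24 h array (log axis) for the 15 largest differences in favour of anti-LTBR, laid out with TNF plus anti-LTBR, TNF, anti-LTBR and PBS from left to right and 1 symbol shape for each array number. Every grey line rises from TNF to anti-LTBR, and the gap is 2.25-fold for Scube3 and 1.5-fold for Mcm3.

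Lists of the structural and phenotypic genes of smooth muscle held no called gene: 0 of 22 contractile genes, 0 of 18 transcription factors and 0 of 26 collagens and matrix genes, with medians of -0.04, 0.04 and -0.01. Unadjusted p was under 0.05 for 3, 4 and 0 of them, against 1422 of all 12446 tested genes. Caspase and death machinery genes (19 tested, median 0.04), pattern recognition receptors (12, median 0.05), sterol genes (15, median 0.02), unfolded protein response genes (16, median -0.01) and immediate early genes (12, median 0.05) also held none, with 4, 5, 0, 3 and 4 at an unadjusted p under 0.05. With equal medians or quantile normalization 1 of the 12 pattern recognition genes was called higher with TNF. The MHC class II, macrophage, lymphocyte and adipocyte lists held no call either, with 5, 7, 2 and 5 genes tested, although 1 class II gene was called higher with TNF after either rescaling. The oxidative stress list had a median of -0.03, with Sod2 as its 1 call, and the matrix protease list had Timp1 as its 1 call of 17. Over all tested genes 0.731% were called, so lists of these sizes would usually hold no call. Lists without a call therefore say little.

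Each agonist was also set against PBS, and the values are given side by side because the comparisons share the 4 PBS arrays. TNF differed from PBS for 739 genes (5.94%; 381 higher and 358 lower) and anti-LTBR for 592 (4.76%; 317 higher and 275 lower), counts that were 42 and 16 without the number as a block. Over the 44 genes called higher with TNF than with anti-LTBR, the median of TNF minus PBS was 1.16 and that of anti-LTBR minus PBS 0.20. Over the 47 called higher with anti-LTBR, these medians were -0.13 and 0.31. With both agonists minus PBS the medians were 1.41 over the 44 genes and 0.53 over the 47. Over all tested genes the 3 medians were -0.02, -0.01 and 0.00. With both agonists Nfkb2 was at 1343 ± 481 and Scube3 at 1197 ± 709 (SD, n = 3), near or above their anti-LTBR levels, and Il6 at 463 ± 139.9, between its TNF and anti-LTBR means of 576 ± 315 and 246 ± 104.

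At 2 h and 6 h, with 1 array a treatment and so no test, the genes called higher with TNF at 24 h were mostly already higher with TNF. The difference was above 0 for 38 of the 44 at 2 h (median 0.39) and for 41 at 6 h (median 0.70), against 43.1% and 48.8% of all tested genes. Gbp2 was at 2677 with TNF and 521 with anti-LTBR at 2 h, at 4549 and 654 at 6 h, and at 1191 and 575 on the arrays numbered 0 at 24 h. Hp was at 146 and 71.7 at 2 h, at 581 and 102 at 6 h, and at 1459.5 and 110.5 at 24 h. Bst2 was at 1009 with TNF and 1163 with anti-LTBR at 2 h, and at 1227 and 957 at 6 h. Of the 47 genes called higher with anti-LTBR, the difference was above 0 for 20 at 2 h and 18 at 6 h, with medians of -0.01 and -0.05. The 36 cell cycle genes had medians of -0.09 and -0.05 at these times.

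Scube3, Nfkb2 and Ccl9 were higher with TNF at the early times and higher with anti-LTBR at 24 h. Scube3 was at 489.9 with TNF and 137 with anti-LTBR at 2 h, at 820.4 and 271 at 6 h, and at 240.5 and 569 on the arrays numbered 0 at 24 h. Its TNF minus anti-LTBR difference was 1.76, 1.56 and -1.21 at these times. Nfkb2 was at 913 with TNF and 361 with anti-LTBR at 2 h, at 954 and 708 at 6 h, and at 538 and 915 at 24 h, differences of 1.31, 0.43 and -0.75. Ccl9 was at 1481 with TNF and 652 with anti-LTBR at 2 h, at 1719.7 and 772 at 6 h, and at 796 and 1098 at 24 h, differences of 1.17, 1.15 and -0.46. Relb, the partner of Nfkb2, was at 1359.7 with TNF and 336 with anti-LTBR at 2 h and at 935 and 542 at 6 h, and stayed above anti-LTBR on the number 0 array at 24 h (404 and 323). All these arrays carry number 0, whose endothelial marker signal was high, and the change between times was not tested.

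**Figure D5:**
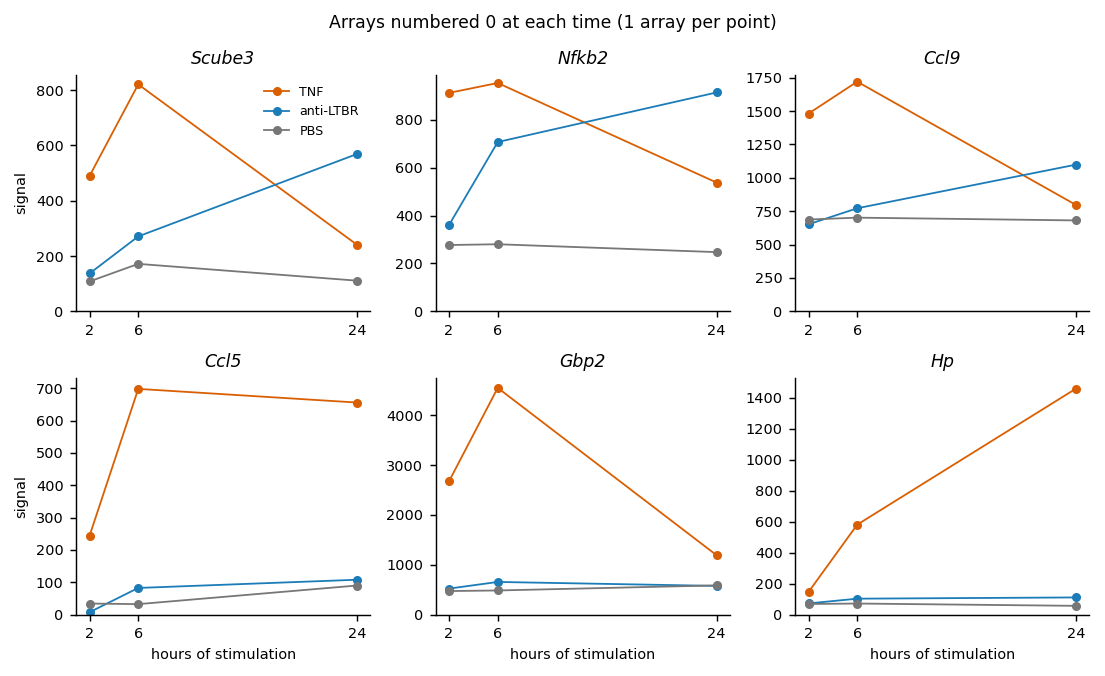
Signal on the arrays numbered 0 against hours of stimulation (2, 6 and 24 h) for 6 genes, with 1 array for each point and lines for TNF, anti-LTBR and PBS. In the upper row TNF is above anti-LTBR at 2 h and 6 h and below it at 24 h, and in the lower row TNF is above anti-LTBR at all 3 times.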

How the data were processed

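RNA of 21 samples was measured on Affymetrix arrays of 45101 probe sets. The values are linear signal intensities as deposited by the authors, made with GCOS 1.4 per the submitters' processing notes and scaled to a trimmed mean of 500 on every array. How probes were combined into probe sets is not stated in these notes. Of the probe sets, 34945 had 1 gene symbol, 932 had several, 9160 had none listed and 64 were controls.

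A pseudocount of 10.2 (the 10th percentile of all 24 h signals) was added before taking log2, so folds of dim genes are understated. Probe sets above their array's median on at least 3 of the 15 arrays of 24 h were kept, and the brightest stood for its gene, giving 12446 genes. All 15 arrays were fitted in limma 3.58.1 (R 4.3.3; lmFit, eBayes with a variance trend) with the array number as a block, and p-values were adjusted by Benjamini-Hochberg over all genes. The fit was tested on simulated data. The block was used because TNF and anti-LTBR arrays of 1 number deviated together from their group means (correlation 0.511 to 0.762 over 4 pairs, against -0.536 to 0.21 over 12 pairs of unlike numbers). On the 8 compared arrays the median signal was 107.4 to 133 and the 3'/5' signal ratio of Gapdh 0.735 to 0.776.

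Genes named were the 15 largest called differences in each direction with 1 sign in 4 of 4 pairs, up to 3 called members of each of 31 lists, and the tested members of the NF-kB pathway and lymphoid stroma lists. Members and lists were chosen with earlier results of these data known. Other filters, scalings, pseudocounts, models and left-out arrays were tried.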

Additional observations from a re-analysis of the deposited data

Results flagged for a closer look

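Among 152 groups of 4 arrays of the named genes, 9 had an array far from the others by Dixon's test. Chance alone marks about 1 in 20, a share that these 9 flags are near. Several belonged to TNF array 0: Ccl5 at 656.0 (others 1365.7 to 1534.7), H2-D1 at 4625.0 (6742.6 to 7158.7), H2-K1 at 6879.6 (9559.1 to 10043.4) and Bst1 at 117.1 (445.7 to 497.5) were lowest there, and Rbck1 at 798.0 (616.7 to 641.1) was highest. Hp was at 221.3 on anti-LTBR array 1 (others 97.4 to 110.5), and Cp was at 2004.0 on TNF array 1 (956.4 to 1043.2). Ltbr was at 1597.6 on anti-LTBR array 0 (1381.0 to 1392.4), and Tnfrsf1b at 206.6 on TNF array 2 (358.1 to 374.9). On the arrays numbered 0, endothelial marker signal was also high, and its part in these values was not tested. With flags near the share that chance gives, no trait of TNF array 0 is read from them.

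Scube3, Nfkb2 and Ccl9 had differences between agonists of opposite sign at early and late times. TNF minus anti-LTBR was 1.76 at 2 h and 1.56 at 6 h for Scube3, 1.31 at 2 h for Nfkb2, and 1.17 at 2 h and 1.15 at 6 h for Ccl9, while all 4 pairs at 24 h were below 0 for each gene. The difference between times was not tested, since the early times have 1 array a treatment.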

How the results depend on the processing

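Under all settings tried, the 47 named called genes kept the direction of their difference (1456 of 1456 values), and 1077 of those values were called. Every called gene had the same sign in all its pairs. Another pseudocount, a left-out number or a fit without the block could therefore hardly reverse a direction. The kept direction is largely a result of how the genes were chosen, and no conclusion on robustness is drawn from it. Without the replicate block, 2 genes were called (2 higher with TNF, 0 with anti-LTBR), with 1 of the probe sets lacking a single gene symbol, and the counts against PBS were 42 with TNF and 16 with anti-LTBR. Without the variance trend 33 genes were called, 14 higher with TNF and 19 with anti-LTBR. After scaling to equal medians, 486 genes differed between TNF and PBS. Fitting only the 8 arrays called 126 genes, 65 higher with TNF and 61 with anti-LTBR. Of the 91 main calls, 76 were among them. This fit called 17 probe sets without a single symbol, and 14 when number 0 was also left out, an alternative chosen after seeing the data. Leaving out single arrays or numbers gave 19 to 131 called genes, 11 to 65 of them higher with TNF and 8 to 81 with anti-LTBR, and 1 to 14 probe sets without a single symbol. The cause was not tested. Other changes of filter, pseudocount, probe set choice and normalization kept the total between 67 and 95 calls. The number of arrays limits what could be called.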

Other observations

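Of 3246 tested probe sets without a single gene symbol, 6 were called (0.185%), all higher with TNF, with differences of 1.89, 1.54, 1.53, 1.09, 0.98 and 0.66 on the log2 scale. Among the 44 called genes that the naming rule did not take, Lxn, which encodes the carboxypeptidase inhibitor latexin, and Maf, which encodes a transcription factor, were higher with anti-LTBR by 0.36 and 0.53, and these calls held with each array and each number left out. They were chosen for mention after their values were seen.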
